A study of Mus musculus with 24 samples.

Results

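The genes described here mark B lymphocytes. They are 9 genes of the B cell receptor and its immediate partners (Cd79a, Cd79b, Cd22, Cr2, Blk, Bank1), of the B cell surface (Ms4a1), of the B cell cytoplasm (Fcrla) and of the B lineage programme in the nucleus (Pax5). All probe sets that the array annotation assigns to one of these genes and to no other gene were taken, which gave 14 of the 45101 probe sets, for 9 of the 18193 genes with a probe set of their own. Cd22, Ms4a1 and Pax5 have several probe sets, as has Fcrla, and the other 5 genes have 1 each.

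The series profiled mouse lung with expression microarrays, 24 in all, and 14 of them carried RNA of tumours driven by a mutant epidermal growth factor receptor (EGFR). L858R tumours (4 arrays, strain label FVB mixed), L858R+T790M tumours (5 arrays, strain label FVB) and T790M tumours (5 arrays, strain label FVB) were nodules dissected by eye from bitransgenic mice that had eaten doxycycline for 3 to 6 months. L858R is an activating EGFR mutation, and T790M is known for resistance to EGFR inhibitors. The mixed-strain normals (5 arrays, strain label FVB mixed) and the FVB normals (5 arrays, strain label FVB) were lungs of littermates with no transgene or only 1 of them, which were on doxycycline too. The labels do not state ages, sexes, the promoter behind each transgene or whether each array came from its own mouse, and p-values here therefore reflect only how much these arrays differed, part of which may be technical. A nodule dissected by eye holds stroma and blood beside tumour cells, and in such bulk RNA fewer cells of a type and less RNA per cell cannot be told apart.

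A B cell senses antigen through a membrane immunoglobulin that signals by way of a pair of proteins encoded by Cd79a and Cd79b. Src family kinases, Blk among them, phosphorylate that pair, CD22 damps the signal, and complement receptor 2, encoded by Cr2, lowers the threshold for antigen coated with complement. Pax5 is the transcription factor that commits a progenitor to the B lineage and holds it there. In a healthy mouse lung B cells are found in the circulation of the organ and in small lymphoid aggregates.

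Promoters of 6 members are in the RefSeq table of mouse build GRCm38.p6, each 250 bases before to 50 bases after the start used there. That start is not always the outer end of the gene. The window of Cd22 ends at 30879278, while the gene on the minus strand reaches 30880342. For Fcrla, also on the minus strand, the window ends at 170927833 and the gene reaches 170932216. Those of Cd79b, Ms4a1 and Blk were not analysed here. The 3 promoters below are shown because their genes behaved differently in the tumours: Bank1 and Cd79a fell in each tumour group, while Cd22 passed the test in none. Capitals mark letters that factors of the B lineage are known to recognise, searched on both strands: CCCNNGGG for EBF, CAGGTG for E2A and GAGGAA for PU.1.

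Bank1, chr3:136326017-136326316, minus strand: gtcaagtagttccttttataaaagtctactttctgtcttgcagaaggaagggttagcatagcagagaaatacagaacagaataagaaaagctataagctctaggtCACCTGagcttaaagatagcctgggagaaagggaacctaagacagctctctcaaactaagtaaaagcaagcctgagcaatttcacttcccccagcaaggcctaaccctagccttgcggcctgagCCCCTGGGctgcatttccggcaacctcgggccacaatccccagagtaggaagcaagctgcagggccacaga

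Cd79a, chr7:24897247-24897546, plus strand: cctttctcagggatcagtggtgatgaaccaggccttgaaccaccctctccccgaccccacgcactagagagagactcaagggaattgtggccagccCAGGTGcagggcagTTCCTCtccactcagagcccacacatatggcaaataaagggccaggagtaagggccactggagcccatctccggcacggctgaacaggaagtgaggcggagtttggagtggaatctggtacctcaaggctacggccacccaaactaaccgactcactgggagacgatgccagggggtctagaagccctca

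Cd22, chr7:30878979-30879278, minus strand: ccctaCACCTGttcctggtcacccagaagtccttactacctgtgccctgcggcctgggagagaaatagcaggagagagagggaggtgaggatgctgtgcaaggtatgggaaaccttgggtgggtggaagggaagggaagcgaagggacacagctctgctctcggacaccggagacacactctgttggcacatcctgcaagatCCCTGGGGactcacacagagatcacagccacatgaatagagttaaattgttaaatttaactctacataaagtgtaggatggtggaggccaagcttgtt

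The letters CAGGTG or their reverse complement stood in 5 of the 6 member promoters (Bank1, Cd22, Cd79a, Cr2 and Fcrla), and in 20.2% of the 32851 mouse promoters of the same length. CCCNNGGG stood in 2 of the 6, beginning at position -21 from the start used for Bank1 and at -48 from that used for Cd22, against 13.7% of all promoters. GAGGAA stood in the promoters of Cd79a and Fcrla, against 28.3% of all, and the octamer ATGCAAAT in 0 of the 6, against 1.74% of all. None of the marked letters overlap. The EBF letters were thus in the promoter of a member that fell (Bank1) and of one that did not pass the test (Cd22). A match is only a string of letters, and binding was not measured.

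In each tumour group most B cell genes were lower than in the normal lungs of the same strain label, and none passed the test upward. In L858R tumours 6 of the 9 genes fell, in L858R+T790M tumours the same 6 (Ms4a1, Bank1, Cd79a, Fcrla, Cr2 and Blk), and in T790M tumours 5 of these, without Blk. Here and below a gene is called where the adjusted p of limma (Benjamini-Hochberg over 18193 genes, two-sided) was under 0.05, and differences are tumour minus normal on the log2 scale with their standard error. Of all genes, 18.1% were called lower and 23.3% higher in L858R tumours, 16.1% lower and 20.2% higher in L858R+T790M tumours, and 17.9% lower and 21.9% higher in T790M tumours. The median difference of the 9 members was -0.91 in L858R tumours, -1.18 in L858R+T790M tumours and -0.88 in T790M tumours, beside medians over all genes of 0.05, 0.03 and 0.00. No member passed upward in any of the tumour groups, at an unadjusted p under 0.05 either. L858R+T790M and T790M tumours share their FVB normals, so their differences are not independent of each other.

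The arrays of the groups separated to different degrees. In L858R tumours every array lay below every mixed-strain normal for 6 of the 9 genes, as it did for 16.0% of all genes. In L858R+T790M tumours this held for 2 genes, Ms4a1 and Bank1 (13.0% of all genes), and in T790M tumours for 0 (12.8% of all genes). Taken one by one in a fit over 45037 probe sets, 10 of the 14 member probe sets fell in L858R tumours (17.0% of all probe sets), 9 in L858R+T790M tumours (14.2%) and 8 in T790M tumours (16.3%).

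**Figure D1:**
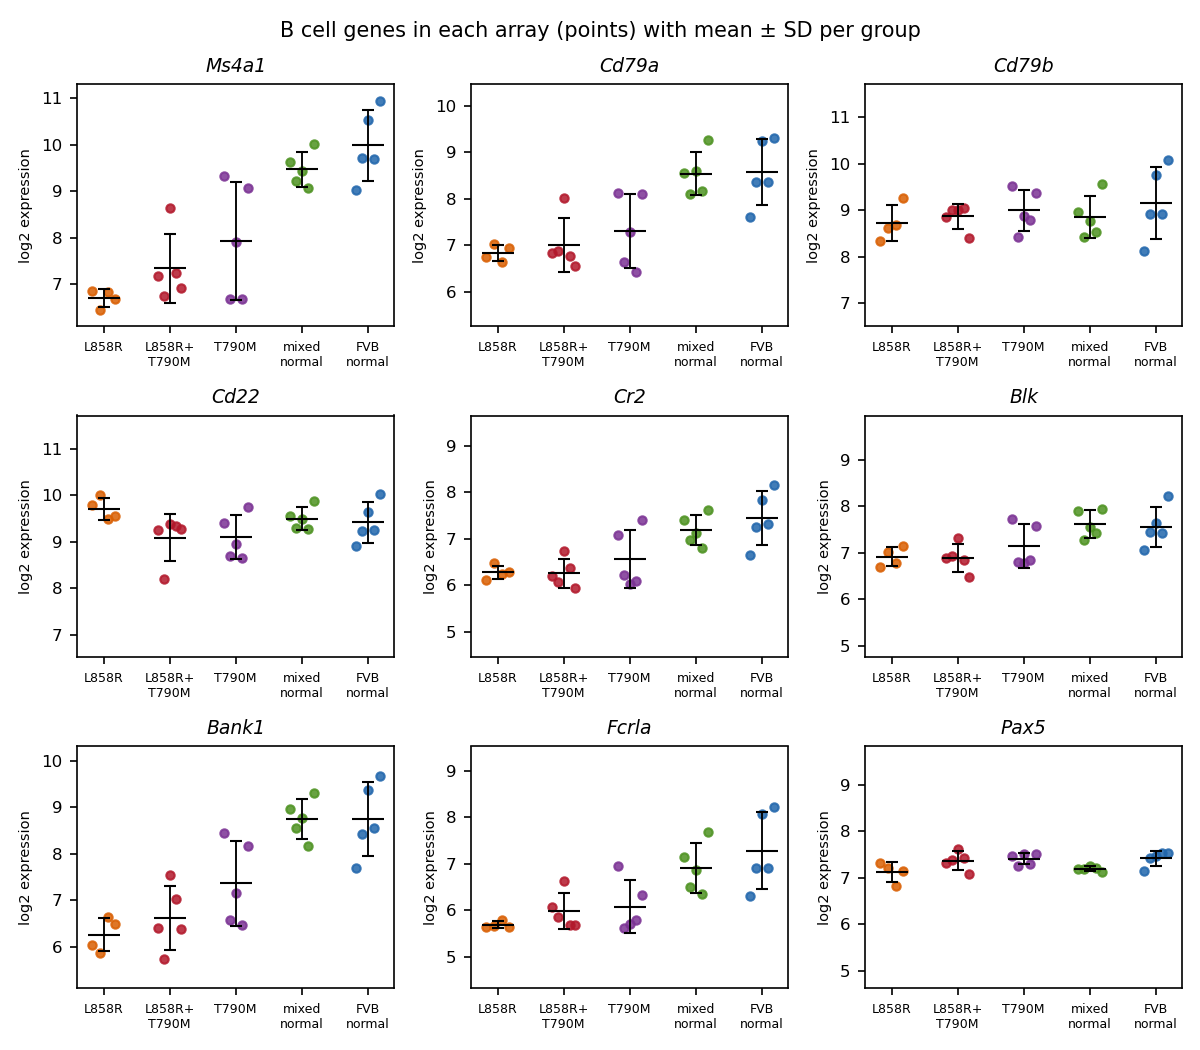
Log2 expression of the 9 B cell genes, with the probe set of the highest mean for each gene. Each point is an array, and the bars give the mean and SD of the 3 tumour groups on the left and the 2 sets of normal lungs on the right. All panels span the same number of log2 units. L858R tumours are low with little spread for Ms4a1, Cd79a, Cr2, Bank1 and Fcrla, T790M tumours are spread out, and for Cd79b, Cd22 and Pax5 each tumour group overlaps the normals of its strain label.

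Ms4a1 encodes CD20, the membrane protein of mature B cells that therapeutic antibodies are raised against, and its difference from normal was the largest among the members in each tumour group. L858R tumours gave log2 values of 6.86, 6.44, 6.84 and 6.69, against 9.63, 9.22, 9.43, 9.06 and 10.02 in the mixed-strain normals. L858R+T790M tumours gave 7.17, 6.75, 8.63, 7.24 and 6.91, and T790M tumours 9.33, 6.68, 7.91, 6.68 and 9.08, against 9.03, 9.72, 10.54, 9.70 and 10.95 in the FVB normals. The L858R tumours lay close together, 1 L858R+T790M tumour stood above its group, and 2 of the 5 T790M tumours reached the lowest FVB normal. The differences were -2.76 ± 0.49 (6.8-fold, adjusted p = 0.00011, limma) in L858R tumours, -2.65 ± 0.46 (6.27-fold, adjusted p = 0.000116) in L858R+T790M tumours and -2.05 ± 0.46 (4.15-fold, adjusted p = 0.00125) in T790M tumours. In the ranking of all 18193 genes from the lowest difference upward, Ms4a1 held place 134 in L858R tumours, 107 in L858R+T790M tumours and 214 in T790M tumours. The dimmer second probe set of Ms4a1 (1450912_at) gave -3.51 ± 0.57, -3.39 ± 0.54 and -2.47 ± 0.54 in the same order of tumours and was called in each.

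Bank1 encodes a scaffold that links the B cell receptor to calcium release. Its log2 values were 6.04, 5.88, 6.64 and 6.50 in L858R tumours, against 8.96, 8.55, 8.77, 8.18 and 9.30 in the mixed-strain normals. They were 6.41, 5.74, 7.54, 7.04 and 6.38 in L858R+T790M tumours and 8.46, 6.58, 7.15, 6.47 and 8.18 in T790M tumours, against 7.70, 8.42, 9.38, 8.56 and 9.68 in the FVB normals. The T790M tumours that were high for Ms4a1, replicates 1 and 5, were again the high ones and lay among the normals. Bank1 fell with differences of -2.49 ± 0.43 in L858R tumours (5.61-fold, adjusted p = 7.91e-05, limma), -2.13 ± 0.41 in L858R+T790M tumours (4.37-fold, adjusted p = 0.000271) and -1.38 ± 0.41 in T790M tumours (2.6-fold, adjusted p = 0.00922).

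Of the receptor's signalling pair, Cd79a passed the test in each tumour group and Cd79b in none. Cd79a had log2 values of 6.75, 7.02, 6.64 and 6.95 in L858R tumours, against 8.55, 8.11, 8.59, 8.18 and 9.27 in the mixed-strain normals. It had 6.84, 6.89, 8.03, 6.78 and 6.55 in L858R+T790M tumours and 8.12, 6.65, 7.29, 6.42 and 8.10 in T790M tumours, against 7.61, 8.36, 9.24, 8.36 and 9.30 in the FVB normals. Cd79a fell in each: the differences were -1.70 ± 0.38 in L858R, -1.56 ± 0.36 in L858R+T790M and -1.26 ± 0.36 in T790M tumours, with adjusted p of 0.000959, 0.00146 and 0.00709 (limma).

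Cd79b, the partner chain, had log2 values of 8.34, 8.61, 8.68 and 9.27 in L858R tumours, against 8.97, 8.42, 8.77, 8.54 and 9.57 in the mixed-strain normals. It had 8.86, 9.01, 9.01, 9.06 and 8.40 in L858R+T790M tumours and 9.52, 8.43, 8.88, 8.79 and 9.37 in T790M tumours, against 8.13, 8.93, 9.76, 8.92 and 10.08 in the FVB normals. The groups overlapped throughout. Its differences of -0.13 (95% interval -0.79 to 0.53), -0.30 (-0.91 to 0.32) and -0.17 (-0.78 to 0.45) in L858R, L858R+T790M and T790M tumours did not pass the test (adjusted p = 0.776, 0.483 and 0.7, limma). The intervals leave room for a moderate change, but the upper end of that of Cd79a in L858R tumours (-0.92) lay below the lower end of that of Cd79b, while in the other tumour groups the 2 intervals overlapped.

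Within each array the log2 value of Cd79a minus that of Cd79b shows the same unequal change, since array-wide shifts cancel. It lay between -2.32 and -1.59 in L858R tumours and between -0.42 and -0.18 in the mixed-strain normals. It lay between -2.28 and -0.98 in L858R+T790M tumours, between -2.37 and -1.27 in T790M tumours and between -0.78 and -0.52 in the FVB normals. No tumour array overlapped any normal array, and the SD was 0.36, 0.51 and 0.43 in the 3 tumour groups, in the order just given, against 0.09 in mixed-strain and 0.11 in FVB normals. This pair was set side by side after the values had been seen, so the separation is given with no test.

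Cd22, the inhibitory lectin of the B cell surface, overlapped the normal lungs in each tumour group. L858R tumours had log2 values of 9.79, 10.00, 9.49 and 9.55, against 9.56, 9.29, 9.49, 9.28 and 9.88 in the mixed-strain normals. It had 9.25, 8.20, 9.38, 9.33 and 9.28 in L858R+T790M tumours and 9.40, 8.70, 8.96, 8.65 and 9.75 in T790M tumours, against 8.91, 9.23, 9.65, 9.26 and 10.03 in the FVB normals. The differences were 0.21 (95% interval -0.32 to 0.74), -0.33 (-0.83 to 0.17) and -0.32 (-0.82 to 0.17) in L858R, L858R+T790M and T790M tumours, and none passed the test (adjusted p = 0.544, 0.312 and 0.305, limma). The second Cd22 probe set (1419769_at) gave 0.20 ± 0.36, -0.51 ± 0.34 and -0.60 ± 0.34, likewise not called. Ms4a1 minus Cd22 within an array lay between -3.56 and -2.65 in L858R tumours and between -0.22 and 0.14 in the mixed-strain normals. It lay between -2.37 and -0.75 in L858R+T790M tumours, between -2.02 and -0.07 in T790M tumours and between 0.12 and 0.92 in the FVB normals, again with no overlap between tumours and the normals of their strain label. Ms4a1 had the largest difference of the members and Cd22 was not called. Some separation of this pair thus follows from those results, and it is given with no test.

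**Figure D2:**
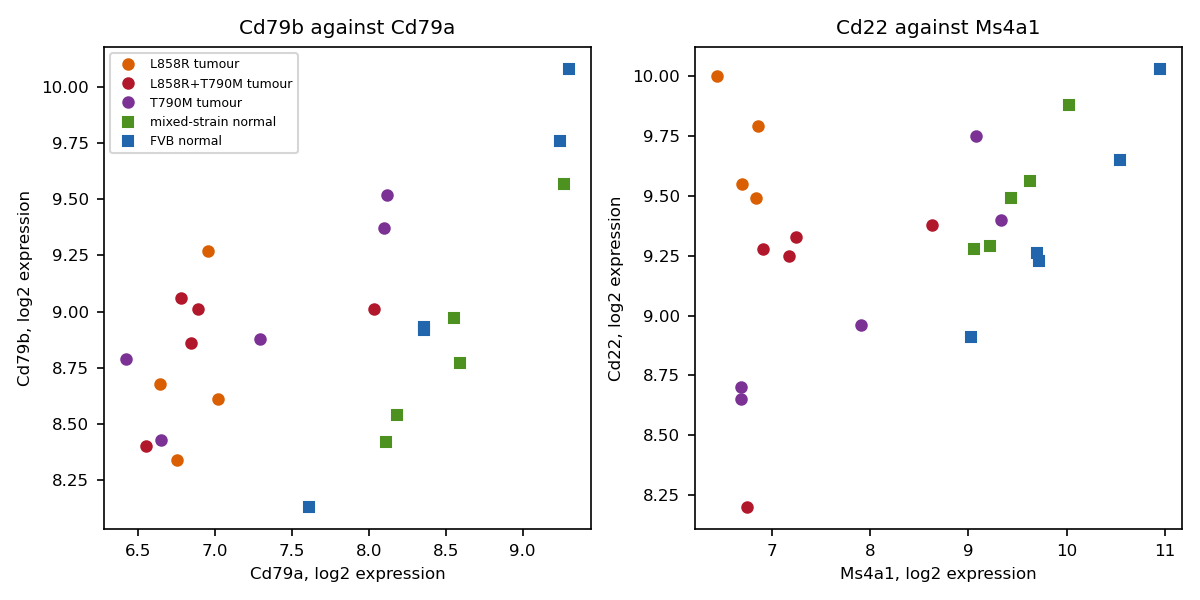
Log2 expression of Cd79b against Cd79a (left) and of Cd22 against Ms4a1 (right), with one point per array, circles for tumours and squares for normal lungs. In the left panel the tumours lie to the left of the band formed by the 10 normal lungs, with Cd79b levels that overlap the normals. In the right panel the 4 L858R tumours have Cd22 values between 9.49 and 10.00 at Ms4a1 values under those of every normal lung.

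Cr2, whose product binds complement fragments on B cells and on follicular dendritic cells, had log2 values of 6.11, 6.47, 6.24 and 6.28 in L858R tumours, against 7.41, 6.98, 7.12, 6.81 and 7.62 in the mixed-strain normals. It had 6.19, 6.06, 6.74, 6.36 and 5.95 in L858R+T790M tumours and 7.07, 6.21, 6.03, 6.10 and 7.40 in T790M tumours, against 6.66, 7.26, 7.84, 7.31 and 8.15 in the FVB normals. The L858R tumours were all below the mixed-strain normals, while 1 L858R+T790M and 2 T790M tumours reached into the FVB normals. Cr2 fell with a difference of -0.91 ± 0.28 in L858R, -1.18 ± 0.27 in L858R+T790M and -0.88 ± 0.27 in T790M tumours, with adjusted p of 0.0123, 0.00126 and 0.011 (limma).

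Blk, a Src family kinase of B cells, showed smaller shifts. It ranged between 6.70 and 7.14 (median 6.90) in L858R tumours and between 7.28 and 7.95 (median 7.55) in the mixed-strain normals, without overlap. It ranged between 6.48 and 7.32 (median 6.89) in L858R+T790M tumours, between 6.78 and 7.72 (median 6.84) in T790M tumours and between 7.05 and 8.22 (median 7.45) in the FVB normals. Blk fell with differences of -0.71 ± 0.23 in L858R tumours (adjusted p = 0.0156, limma) and -0.66 ± 0.21 in L858R+T790M tumours (adjusted p = 0.0183). In T790M tumours its difference of -0.41 ± 0.21 was not called (adjusted p = 0.135). The call in L858R+T790M tumours was lost without L858R+T790M tumour replicate 5 or without FVB normal replicate 5 (adjusted p up to 0.0693), and a call in T790M tumours appeared without T790M tumour replicate 1 (-0.56, adjusted p = 0.0415).

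Fcrla encodes a protein related to Fc receptors that stays inside the B cell. Its brightest probe set ranged between 5.64 and 5.80 (median 5.66) in L858R tumours and between 6.35 and 7.68 (median 6.87) in the mixed-strain normals. It ranged between 5.68 and 6.63 (median 5.86) in L858R+T790M tumours, between 5.62 and 6.96 (median 5.80) in T790M tumours and between 6.31 and 8.23 (median 6.92) in the FVB normals. The L858R tumours stood clear of the normals, and the upper arrays of both other tumour groups overlapped them. Fcrla fell by similar amounts, with -1.22 ± 0.35 in L858R, -1.30 ± 0.33 in L858R+T790M and -1.20 ± 0.33 in T790M tumours, and adjusted p of 0.00699, 0.00332 and 0.00545 (limma). Its other probe sets fell too in each tumour group, with differences of -0.80 to -0.67 for 1425802_a_at and of -0.28 to -0.23 for the dim 1419908_at.

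Pax5, the factor that holds B cell identity, overlapped the normals of the same strain label in each tumour group. Its brighter probe set ranged between 6.82 and 7.31 (median 7.19) in L858R tumours, between 7.08 and 7.63 (median 7.39) in L858R+T790M tumours and between 7.26 and 7.52 (median 7.48) in T790M tumours. The mixed-strain normals ranged between 7.12 and 7.26 (median 7.20) and the FVB normals between 7.15 and 7.54 (median 7.47). The differences were -0.07 (95% interval -0.29 to 0.15), -0.05 (-0.26 to 0.16) and -0.01 (-0.21 to 0.20), with adjusted p of 0.616, 0.735 and 0.969 (limma). The dimmer Pax5 probe set (1421765_at) disagreed: it fell by 0.29 ± 0.11 in L858R tumours (adjusted p = 0.048 over 45037 probe sets, limma). Its differences of -0.14 ± 0.11 in L858R+T790M and -0.27 ± 0.11 in T790M tumours were not called (adjusted p = 0.336 and 0.0516, limma). With group means subtracted, r between the 2 Pax5 probe sets was -0.08 over 24 arrays, -0.16 in tumours and 0.13 in normal lungs. Which of them reads Pax5 of B cells was not tested, so the gene is not called unchanged.

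**Figure D3:**
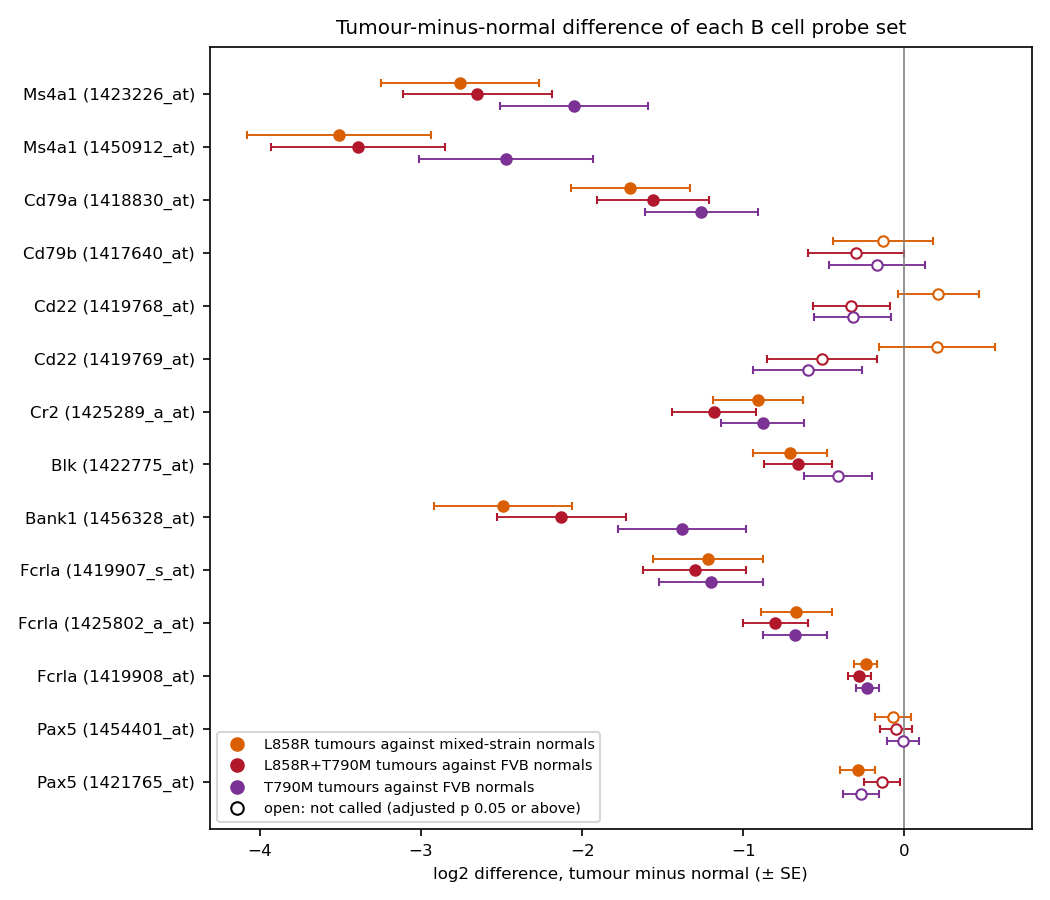
Log2 difference, tumour minus the normals of the same strain label, with its standard error for each of the 14 member probe sets in the 3 tumour groups. Filled points were called at an adjusted p under 0.05 in the fit over all probe sets, and open points were not. Ms4a1 and Bank1 lie farthest to the left, and both Cd22 probe sets, Cd79b and the brighter Pax5 probe set have open points in each tumour group, the lowest of them at -0.60 for the second Cd22 probe set in T790M tumours.

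The tumours were not alike, and most members agreed on which L858R+T790M and T790M tumours were high. The L858R tumours lay close together, and the members shared no order there. L858R tumour replicate 2 was lowest for Ms4a1 (6.44) and highest for Cd79a (7.02). The mean over the 9 genes was 7.06 to 7.24 in L858R tumours and 7.89 to 8.71 in the mixed-strain normals. It was 7.22, 6.98, 7.88, 7.31 and 6.97 in L858R+T790M tumours and 8.23, 6.99, 7.36, 7.01 and 8.15 in T790M tumours, against 7.62, 8.19, 8.84, 8.22 and 9.13 in the FVB normals. The high tumours were thus L858R+T790M tumour replicate 3 and T790M tumour replicates 1 and 5, and the lowest normal lung was FVB normal replicate 1. T790M tumour replicate 1 also stood apart over the whole array: its score on the first principal component (58.1% of the variance) was -3.0, while the other 13 tumours scored 12.6 or more and the normals -43.2 or less. Without it the T790M differences were -2.40 for Ms4a1, -1.65 for Bank1, -1.46 for Cd79a, -1.42 for Fcrla and -1.01 for Cr2, and 6 of the 9 members were called, Blk being the addition.

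**Figure D4:**
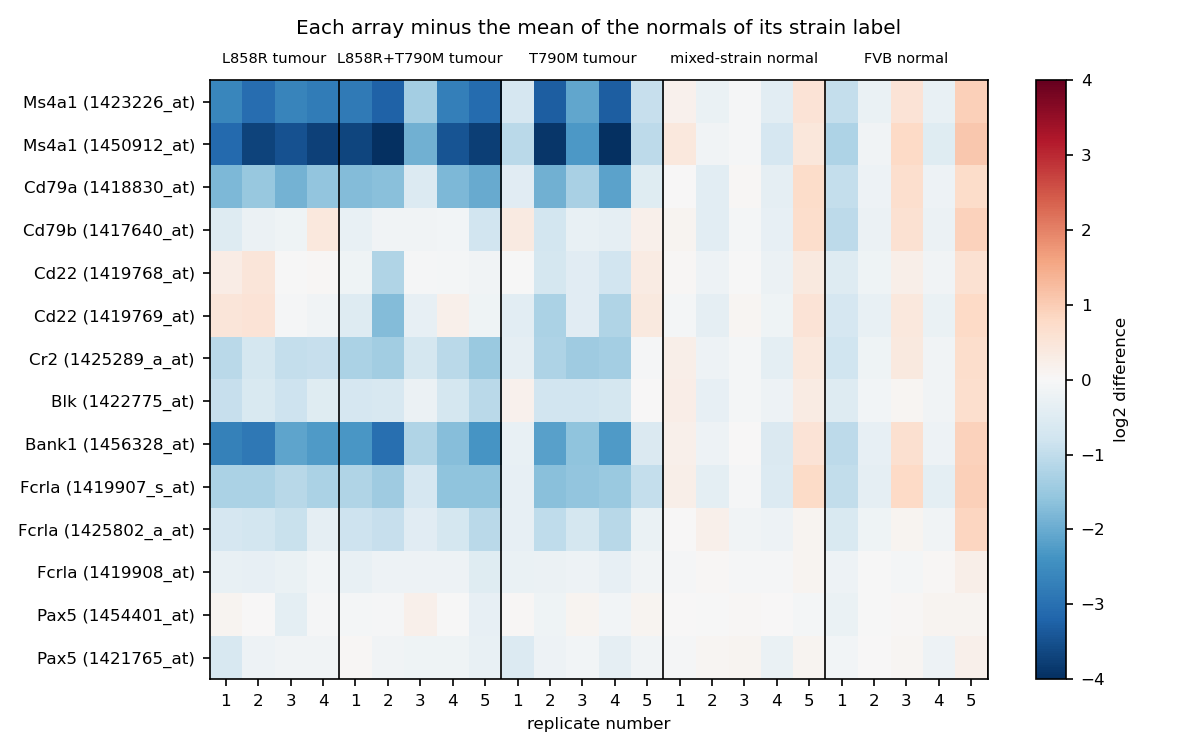
Log2 value of each member probe set (rows) in each array (columns, by replicate number) minus the mean of the normals that carry the array's strain label. Blue is lower and red higher than that mean. The L858R tumours are uniformly blue for Ms4a1, Bank1 and Cd79a, and L858R+T790M tumour 3 and T790M tumours 1 and 5 are paler than the rest of their groups.

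With the group means subtracted, the members varied together from array to array. Over the 10 normal lungs, Pearson's r between pairs of members without Pax5 ran between 0.88 and 0.99 (28 pairs, median 0.97), and over the 14 tumours between 0.26 and 0.94 (median 0.78). The lowest of these pairs in tumours was Cd22 with Cd79b, at 0.26, while the same pair had 0.98 in the normal lungs. Set against the other 8 members, Cd79a, Ms4a1, Blk, Cr2, Bank1 and Fcrla had r between 0.83 and 0.95 in tumours and between 0.92 and 0.99 in normal lungs. Cd79b had 0.70 in tumours and 0.99 in normal lungs, Cd22 had 0.62 in tumours and 0.98 in normal lungs, and Pax5 had 0.53 in tumours and 0.52 in normal lungs. These are descriptions with no test, and the arrays of a group share whatever its nodules or lungs share.

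In the rankings by likeness to the members, names of clones and predicted genes were passed over. Outside the members, the genes closest to their profile once group means were removed were Tnfrsf13c and Fcmr (r = 0.93 each over 24 arrays), Ighv14-2, Spn and Fcrl1 (0.92 each), Cxcr5 (0.91), Tbc1d10c and Spib (0.89 each). Tnfrsf13c is the receptor for the survival factor BAFF, Fcmr the receptor for IgM, Cxcr5 the receptor that guides B cells to follicles, and Ighv14-2 a variable segment of the immunoglobulin heavy chain, whose probes may also read related segments. Spn and Tbc1d10c, like Ighv14-2, are in none of the gene lists described below, and their link to B cells was not tested. Spn also varied little, with group means of 7.29 in L858R tumours to 7.76 in FVB normals. With group means kept, Tnfrsf13c, Ighv14-2 and Fcrl1 (0.94 each), Traf3ip3, Cxcr5 and Ikzf3 (0.93 each), and Fcmr and Spib (0.92 each) led. Fcrl1, for one, had medians of 6.20 in L858R tumours against 7.36 in the mixed-strain normals, and of 6.26 in L858R+T790M and 6.36 in T790M tumours against 7.52 in the FVB normals.

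The comparisons among tumours and among normal lungs called no member. Between L858R+T790M and T790M tumours 0 of 9 genes passed (1.59% of all genes did, limma), with Bank1 at -0.75 ± 0.41 and Ms4a1 at -0.60 ± 0.46. For L858R tumours the strain label was allowed for by comparing the tumour-minus-normal differences. On that scale 0 of 9 passed against L858R+T790M tumours (0.0715% of all genes) and 0 of 9 against T790M tumours (0.418%), with Bank1 in the second at -1.11 (95% interval -2.33 to 0.12) and Cd22 at 0.53 (-0.19 to 1.26). In these 3 comparisons no member reached an unadjusted p under 0.05 either. Mixed-strain against FVB normals gave 0 of 9 (1.04% of all genes), and only Pax5, with a difference of -0.22 ± 0.10, had an unadjusted p under 0.05 in limma (adjusted p = 0.286). Pax5 averaged 7.20 ± 0.05 in mixed-strain and 7.42 ± 0.16 in FVB normals (SD, n = 5 each). The intervals are wide: that of Ms4a1 between L858R+T790M and T790M tumours ran between -1.56 and 0.37.

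Other surface proteins of B cells fell with the members. Of 15 measured, 11 fell in L858R tumours, 8 in L858R+T790M tumours and 6 in T790M tumours, and 0 rose, with medians of -0.89, -0.73 and -0.58. Fcmr fell with differences of -2.67 ± 0.46, -1.94 ± 0.43 and -1.63 ± 0.43 in L858R, L858R+T790M and T790M tumours, and those of Cd37, a tetraspanin, which fell too, were -1.42 ± 0.36, -1.19 ± 0.33 and -1.24 ± 0.33. Cd40, the receptor for T cell help, fell with a difference of -1.28 ± 0.28 in L858R and -0.88 ± 0.26 in T790M tumours. Cxcr5 fell with -1.26 ± 0.30 in L858R, -0.91 ± 0.29 in L858R+T790M and -0.90 ± 0.29 in T790M tumours. Fcrl1 fell with -1.24 ± 0.27, -1.26 ± 0.26 and -0.90 ± 0.26 in the same order. Ccr7, which steers lymphocytes to lymph nodes, fell with -1.21 ± 0.41 in L858R and -1.79 ± 0.39 in L858R+T790M tumours. Cd72, Fcgr2b and Cd24a were called in none of the tumour groups against normals. With single arrays left out, 8 to 10 of them fell in L858R tumours, fewer than the 11 with all arrays. The ranges were 7 to 9 in L858R+T790M and 5 to 10 in T790M tumours. The count of 10 in T790M tumours came without FVB normal replicate 1, the lung that was low for the members.

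Transcription factors of the B lineage moved unevenly. Of 12 measured, 7 fell and 1 rose in L858R tumours, 5 fell in L858R+T790M tumours, and 6 fell and 1 rose in T790M tumours. With single arrays left out, 5 to 7, 4 to 7 and 4 to 8 fell in the same order of tumours. Ebf1, which acts upstream of Pax5, fell with differences of -2.32 ± 0.27, -2.18 ± 0.25 and -1.60 ± 0.25 in L858R, L858R+T790M and T790M tumours. Ebf1 is also known from stromal and fat cells. Spib fell with differences of -1.43 ± 0.29, -1.42 ± 0.27 and -1.16 ± 0.27, and Ikzf3, the factor Aiolos, with -1.33 ± 0.43, -1.42 ± 0.40 and -1.03 ± 0.40. Pou2af1, a B cell coactivator for octamer sites, fell with differences of -2.49 ± 0.67 in L858R and -1.76 ± 0.63 in L858R+T790M tumours. Bach2 fell with -1.06 ± 0.26 in L858R, -1.05 ± 0.24 in L858R+T790M and -0.91 ± 0.24 in T790M tumours. In T790M tumours Ikzf1 fell by 0.94 ± 0.27. The genes that rose were Spi1, the PU.1 factor of myeloid and B cells, by 0.93 ± 0.28 in L858R tumours, and Tcf3, which encodes E2A, by 0.21 ± 0.08 in T790M tumours (adjusted p = 0.048, limma), a call that was lost without 8 of the 10 arrays taken singly.

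Of 12 receptor signalling genes 1 fell and 3 rose in L858R tumours, 1 fell and 1 rose in L858R+T790M tumours, and 0 fell and 1 rose in T790M tumours. Of all genes, 18.1%, 16.1% and 17.9% were called lower and 23.3%, 20.2% and 21.9% higher in the same order of tumours. With so few genes these counts are not read as a result about the list. Blnk, the adaptor that couples the receptor to its effectors, fell with differences of -1.29 ± 0.31 in L858R and -0.82 ± 0.29 in L858R+T790M tumours, where the call was lost without replicate 2 or 4 of the tumours or 3 or 5 of the FVB normals. Malt1, a protease in antigen receptor signalling to NF-kB, rose by 2.88 ± 0.25 in L858R, by 2.54 ± 0.23 in L858R+T790M and by 1.51 ± 0.23 in T790M tumours. Pik3ap1 and Btk, both also used by myeloid cells, rose in L858R tumours by 1.27 ± 0.32 and 0.55 ± 0.17. The rest, Syk, Plcg2, Vav1, Prkcb, Ptpn6, Dok3, Bcl10 and Cd81 among them, were not called in any tumour group, and the medians of the list were 0.23, 0.03 and -0.22. Without T790M tumour replicate 1 or 5, 2 of the 12 were called lower in T790M tumours.

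Of 11 plasma cell and immunoglobulin genes measured, 5 fell in L858R tumours: Ighm, the heavy chain of IgM, with -2.14 ± 0.82, Mzb1 with -1.08 ± 0.38, Prdm1 with -1.01 ± 0.17, Irf4 with -0.70 ± 0.14 and Tnfrsf17 with -0.32 ± 0.12. Only 2 to 3 of them were called without L858R tumour replicate 1, 2 or 4 or without mixed-strain normal replicate 3 or 5. In L858R+T790M and T790M tumours 1 fell, Prdm1, with -0.77 ± 0.16 and -0.80 ± 0.16. Of all genes, 18.1%, 16.1% and 17.9% were called lower in L858R, L858R+T790M and T790M tumours. Derl3, of the secretory pathway, rose by 0.32 ± 0.10 in L858R+T790M tumours (not called without tumour replicate 2 or FVB normal replicate 3) and by 0.62 ± 0.10 in T790M tumours. Sdc1, the syndecan that marks plasma cells and is abundant on epithelium too, rose by 1.57 ± 0.11, 1.64 ± 0.10 and 1.46 ± 0.10 in L858R, L858R+T790M and T790M tumours. Jchain, which joins secreted IgM and IgA, had differences of -1.87 ± 0.96, -0.02 ± 0.90 and 1.12 ± 0.90, none of them called. Of these genes, the strain-adjusted comparison of L858R with T790M tumours called Derl3 (-0.85). The normal lungs differed too, though no gene of this list was called between them. Mixed-strain minus FVB normals gave 1.86 ± 0.77 for Ighm and 1.86 ± 0.90 for Jchain. The same difference was 0.28 for Mzb1, 0.24 for Prdm1, 0.14 for Irf4 and 0.05 for Tnfrsf17. The part of the normal lungs in the L858R result for Ighm was not tested.

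Genes of B cell progenitors were called lower only, and those of germinal centres and of the B cell niche in both directions. Of all genes, 16.1% to 18.1% were called lower and 20.2% to 23.3% higher in the tumour groups. Counts this small are thus not read as results about these lists. Of the niche genes, 4 fell and 2 rose in L858R tumours. In L858R+T790M tumours 2 fell and 3 rose, and in T790M tumours 2 fell and 1 rose. Of 7 progenitor genes Vpreb3 fell with differences of -0.93 ± 0.12, -0.73 ± 0.11 and -0.59 ± 0.11 and Il7r with -1.22 ± 0.30, -0.74 ± 0.28 and -0.76 ± 0.28 in L858R, L858R+T790M and T790M tumours, while Rag1, Rag2, Vpreb1, Igll1 and Dntt were not called. Il7r is a T cell gene as well. Of 6 germinal centre genes Fas fell in each tumour group, with -1.18 ± 0.23 in L858R and -0.61 ± 0.22 in L858R+T790M tumours and a value between these in T790M tumours. Gcsam fell with differences of -0.41 ± 0.10 in L858R and -0.44 ± 0.09 in L858R+T790M tumours, and S1pr2 rose by 0.60 ± 0.16 in L858R+T790M tumours. Of 9 niche genes Ltb, a lymphotoxin that B cells make, fell with differences of -1.92 ± 0.44, -1.44 ± 0.42 and -1.07 ± 0.42. Tnfsf13b, which encodes BAFF, fell with differences of -1.74 ± 0.30 in L858R and -0.82 ± 0.28 in L858R+T790M tumours, and Cxcl12 with -2.42 ± 0.67 in L858R and -2.10 ± 0.63 in T790M tumours. Clu rose by 1.18 ± 0.36, 1.81 ± 0.34 and 1.42 ± 0.34, and Ltbr by 0.35 ± 0.09 in L858R and 0.44 ± 0.09 in L858R+T790M tumours. Mfge8 fell by 0.62 ± 0.19 in L858R tumours and rose by 0.47 ± 0.18 in L858R+T790M tumours. In L858R+T790M and T790M tumours the lower calls were as few as 1 in each of these 3 lists when single arrays were left out. Which cells of the bulk RNA gave the calls of Fas, Cxcl12, Clu and Mfge8 was not tested.

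MHC class II genes, which B cells share with macrophages, dendritic cells and alveolar epithelium, gave calls in both directions. Of 8 measured, 1 fell and 2 rose in L858R tumours, 1 fell and 1 rose in L858R+T790M tumours, and 0 fell and 5 rose in T790M tumours. Of all genes, 18.1%, 16.1% and 17.9% were called lower and 23.3%, 20.2% and 21.9% higher in the same order. In L858R tumours 1 rose without tumour replicate 2 or mixed-strain normal replicate 1, and 2 fell without tumour replicate 4 or mixed-strain normal replicate 2. In L858R+T790M tumours 2 rose without tumour replicate 2 or FVB normal replicate 5, and in T790M tumours 1 fell without tumour replicate 1. H2-Ob, which is made mainly by B cells, fell with differences of -2.48 ± 0.50 in L858R and -2.10 ± 0.47 in L858R+T790M tumours. H2-DMa rose by 0.78 ± 0.25, 0.66 ± 0.23 and 1.14 ± 0.23 in L858R, L858R+T790M and T790M tumours, the second of these calls being lost without 6 of the 10 arrays taken singly. Cd74 rose by 0.43 ± 0.13 in L858R and 0.34 ± 0.12 in T790M tumours. In T790M tumours H2-Eb1 rose by 1.81 ± 0.44, Ciita, the regulator of the family, by 1.03 ± 0.30 and H2-Ab1 by 0.56 ± 0.18. H2-Eb1 also differed between the normal lungs, by 2.83 ± 0.44 for mixed-strain minus FVB normals (adjusted p = 0.00459, limma). It was the only gene of this list called there.

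**Figure D5:**
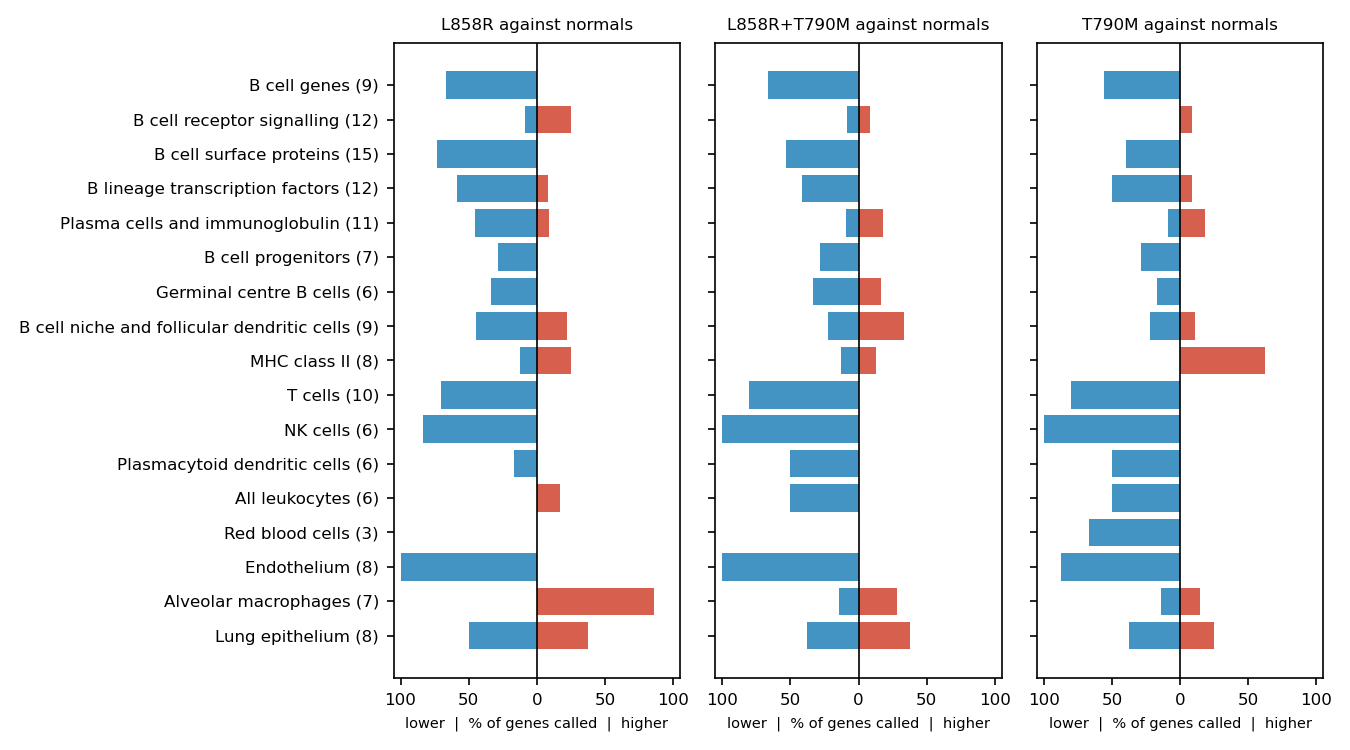
Share of the genes of each list, with the number measured in brackets, that was called lower (blue, left) or higher (red, right) against the normals of the same strain label in L858R, L858R+T790M and T790M tumours. B cell genes and B cell surface proteins are called lower only, as are T cell, NK cell and endothelial genes, while B cell receptor signalling genes and MHC class II genes include upward calls in each tumour group.

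Markers of other cells moved as well. Their counts stand beside 16.1% to 18.1% of all genes called lower and 20.2% to 23.3% called higher in the tumour groups. Of 10 T cell genes 7 fell in L858R, 8 in L858R+T790M and 8 in T790M tumours, the mean over the list being 7.15 to 7.37 in L858R tumours against 7.84 to 8.13 in mixed-strain normals, and 7.19 to 7.70 in L858R+T790M and 6.89 to 7.85 in T790M tumours against 7.97 to 8.38 in FVB normals. Of 6 NK cell genes 5, 6 and 6 fell, and of 6 plasmacytoid dendritic cell genes 1, 3 and 3. Of the latter, Siglech and Ccr9 were called in L858R+T790M and T790M tumours only. Both were also called between the normal lungs, with -0.58 and -1.25 for mixed-strain minus FVB normals. Of 8 endothelial genes 8, 8 and 7 fell, with list means of 9.01 to 10.12 in L858R tumours against 11.77 to 11.88 in mixed-strain normals, and 8.36 to 10.49 in L858R+T790M and 8.25 to 10.84 in T790M tumours against 11.41 to 12.02 in FVB normals. Endothelial means were 10.49 in L858R+T790M tumour replicate 3 and 10.84 and 9.79 in T790M tumour replicates 1 and 5, the tumours that were high for B cell genes, and 8.25 to 10.29 in the other 11 tumours. Their part in the B cell result was not tested.

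Of 6 genes of all leukocytes 0 fell and 1 rose in L858R tumours (Laptm5, by 0.96 ± 0.28), and 3 fell in each of the other tumour groups: Ptprc, the CD45 gene, with -1.04 ± 0.35 and -1.06 ± 0.35, Coro1a with -1.30 ± 0.37 and -1.27 ± 0.37 and Arhgdib with -0.76 ± 0.28 and -1.02 ± 0.28. In L858R+T790M tumours 1 of these was called without tumour replicate 2 or FVB normal replicate 2 or 5. Ptprc differed by -0.11 ± 0.37 in L858R tumours (adjusted p = 0.84, limma), where 6 of the 9 B cell genes fell. L858R+T790M tumour replicate 2, with the lowest Cd22 value, also had the lowest mean over these leukocyte genes, 9.41. Of 7 alveolar macrophage genes 6 rose in L858R tumours, 2 rose and 1 fell in L858R+T790M tumours (5 rose without tumour replicate 2), and 1 rose and 1 fell in T790M tumours (2 rose without tumour replicate 2). Of 8 lung epithelial genes 3 rose and 4 fell in L858R, 3 rose and 3 fell in L858R+T790M and 2 rose and 3 fell in T790M tumours. Without L858R tumour replicate 2 or 4, 2 of them fell in L858R tumours. Of 3 red blood cell genes 2 fell in T790M tumours, Alas2 and Slc4a1, and 0 passed in both other groups. That count was 1 without T790M tumour replicate 2 or without FVB normal replicate 1 or 4, and 1 fell in L858R+T790M tumours without tumour replicate 5.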

How the data were processed

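Per the labels, RNA of 24 mouse lung samples was measured on Affymetrix MOE 430 2.0 arrays. The authors deposited log2 values per probe set, with RMA as the tool named in the submitters' processing notes. Its version and settings, and any batch, are not given in the sources. Array medians lay between 7.2 and 7.3, and no further normalization was applied. RMA gives no detection call, so a low value cannot be told from background, and precision rests on the number of arrays.

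The 64 control probe sets were left out. Symbols of the platform annotation were updated by Entrez identifier for 34741 of the 34945 probe sets with 1 gene. Each of the 18193 genes was represented by its probe set with the highest mean. limma 3.58.1 in R 4.3.3 fitted 5 group means to all arrays (eBayes with trend, 19 residual df), with two-sided p-values adjusted by Benjamini-Hochberg over all genes, and again over 45037 probe sets. Calls needed an adjusted p under 0.05. In data simulated for L858R+T790M tumours against FVB normals (18193 genes), the fit called 88 of 100 genes changed by 1 log2 unit and 97 of 100 changed by 2. Of its 193 calls 8 were false. Recovery at the members' own standard errors, up to 0.46 in that comparison, is not given. The RefSeq names and promoters are those of assembly GRCm38.p6.

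The members and the 16 lists (134 of 154 entries measured, the others not analysed here) were chosen with earlier results of these data known. The text names every member and, from each B lineage list and tumour comparison, up to 4 called genes with the largest differences and any that a count of 5 or fewer stands for. Genes outside this rule, such as Ptprc, Jchain and those named as not called, were chosen after their values were seen.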

Additional observations from a re-analysis of the deposited data

Results flagged for a closer look

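Within groups, 6 of the 70 combinations of a member probe set and a group had an array set apart from the others by Dixon's criterion, which chance gives in about 5% of groups. L858R+T790M tumour replicate 3 was high for Cd79a, at 8.03 against 6.55 to 6.89 in the other arrays of its group, and for Ms4a1 (1423226_at), at 8.63 against 6.75 to 7.24. L858R+T790M tumour replicate 2 was low for Cd22 (1419768_at), at 8.20 against 9.25 to 9.38. L858R+T790M tumour replicate 5 was low for Fcrla (1419908_at), at 4.09 against 4.28 to 4.35. Among L858R tumours, replicate 3 was high for Fcrla (1419907_s_at), at 5.80 against 5.64 to 5.66, and replicate 1 was low for Pax5 (1421765_at), at 5.55 against 6.00 to 6.05.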

How the results depend on the processing

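The number of members called was 6 in L858R tumours without any single array, 5 to 6 in L858R+T790M tumours and 5 to 6 in T790M tumours. Member probe sets called were 9 to 10, 8 to 9 and 8 to 9. Under the other settings (no trend, quantile normalization again, arrays centred on their medians, array weights, only the groups compared, the median over a gene's probe sets, all 10 normal lungs as 1 group, an adjusted p under 0.01, at least 2-fold, the 6064 dimmest genes dropped) the counts in L858R, L858R+T790M and T790M tumours differed from those reported under 4 of these settings. With the dimmest genes dropped, Fcrla and Cr2 were left out, and 4, 4 and 3 of the remaining 7 members were called. The counts were 4, 5 and 4 at an adjusted p under 0.01 and again at 2-fold or more, and 4 in T790M tumours when only the groups compared were fitted. Shares of all genes called in tumours under these settings are not given here, so these counts show only which member calls held. With array weights, 1 member was called between mixed-strain and FVB normals, Pax5, where 3332 genes were called in all. Blk in L858R and L858R+T790M tumours and Cr2 in L858R and T790M tumours missed the adjusted p under 0.01 and the 2-fold limit, and Cr2 in T790M tumours also missed the call when only the groups compared were fitted. The cause was not tested. Of 733 member values under these settings 0 called ones changed sign, and 23 uncalled ones did, for which no direction is stated.

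Same-numbered arrays deviated together in part only (r between -0.28 and 0 for L858R tumours and mixed-strain normals, and between -0.15 and 0.21 in the tumour comparisons with FVB normals). Between L858R+T790M and T790M tumours 4 of the 5 same-numbered pairs had r of 0.21 to 0.44 and the other had 0, and an array's own number was its best match in 2 of 5 there and in 3 of 5 for T790M tumours against FVB normals. Not every pair was over 0.1 in any comparison, so the numbers were not taken as pairs. With the replicate block 6, 6 and 5 members were called in L858R, L858R+T790M and T790M tumours against normals and 0 between L858R+T790M and T790M tumours, and it changed no member's call.

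Leaving out single arrays was also applied to the list counts, a choice made after seeing the data. In L858R+T790M tumours the lower calls of the progenitor, germinal centre and niche lists were 1 to 2 each. In T790M tumours they were 1 to 2 for the progenitor list (1 without FVB normal replicate 3 or 5), 1 to 2 for the germinal centre list and 1 to 3 for the niche list.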
